A study of Strongylocentrotus purpuratus with 9 samples.

Results

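The isolated open chromatin regions of the purple sea urchin gastrula were 2686 of 30866 listed regions, or 8.70% of the list. A region was counted as isolated when it was at most 1000 bp wide, had a listed neighbour on both sides of its scaffold, and was separated from each by more than 20000 bp. A scaffold is a piece of the genome assembly, and a gap is the stretch between 2 listed regions that follow each other on it. Whether a gap holds bases of unknown sequence was not analysed here. The rule used the gaps and a width ceiling, so the gaps below are a description of what was chosen and carry no test.

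The list came from ATAC-seq of Strongylocentrotus purpuratus embryos at 2 dpf (days post fertilisation), the gastrula stage, and was named by 4 samples: gut ATAC-seq libraries A and B, and whole embryo ATAC-seq libraries A and B. No genetic change or drug treatment was named for any of them; embryos were cultured in diluted, filtered sea water, and guts were freed from whole embryos by pipetting in a calcium- and magnesium-free buffer. Nuclei were exposed to the Tn5 transposase, which cuts and tags accessible DNA. The list had 4 columns, with no read depth, score or value for a library, so a region cannot be assigned to the gut or to the rest of the embryo. For the same reason no sample could be set against another, the labelled tissue could not be checked against its markers, and no p-value is given: the comparisons below set counts and medians of regions side by side, and regions are not replicates.

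Open chromatin marks DNA that regulatory proteins can reach, and most known promoters and enhancers lie in it. A promoter sits at the start of a gene, whereas an enhancer may lie far from the gene it acts on, in an intron or between genes. The sea urchin embryo is a long-used model for gene regulatory networks, in which such elements read the transcription factors present in each cell lineage. Open regions with no other listed region nearby have no close partner in the list. Whether any of them is a promoter or an enhancer was not analysed here, since the genome build of the coordinates is not given in the sources used here and no genome sequence was used.

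The isolated regions stood in long stretches with no other listed region. The stretch from the left neighbour to the right neighbour had a median of 97.7 kb, with the middle 50% between 70.2 and 137 kb and a range of 41.4 to 560 kb. The comparison regions, which had both gaps between 2000 and 20000 bp, the same width ceiling and lay on scaffolds that held an isolated region, numbered 5041, and their stretches had a median of 16.2 kb. The smaller of the 2 gaps beside an isolated region had a median of 30645 bp (quartiles 24292 and 42453 bp), and the larger a median of 61448 bp (quartiles 41949 and 94005 bp). The larger gap was more than 2 times the smaller in 1073 isolated regions (40.0%) and in 43.0% of comparison regions. Comparison gaps had an upper as well as a lower bound, and isolated gaps only a lower one, so these shares are not a like comparison. The 4487 gaps that touched an isolated region made up 16.6% of the 27030 gaps in the list and 43.7% of their summed length.

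**Figure D1:**
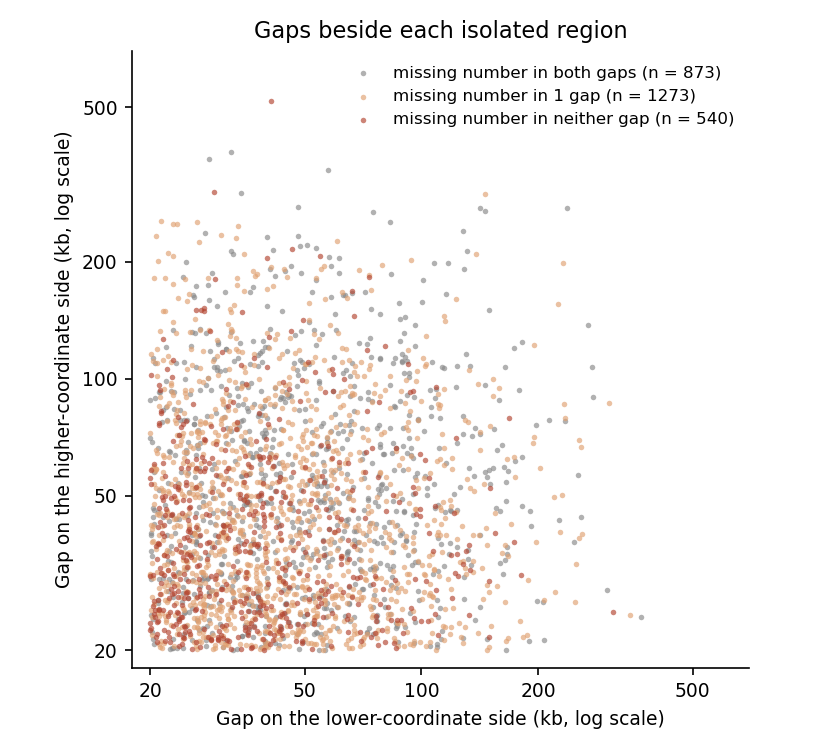
Gap to the neighbour at lower coordinates (x, kb, log scale) and at higher coordinates (y, kb, log scale) for each of the 2686 isolated regions, one point a region, coloured by whether the gaps hold a number that no listed name bears. Points crowd towards the limit of 20000 bp on both axes, and the 540 regions with no missing number reach a smaller gap of 95172 bp at most.

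Most isolated regions were near the lower end of the range that the rule allows. A smaller gap of more than 30000 bp was found in 1388 (51.7%), of more than 50000 bp in 458 (17.1%) and of more than 100000 bp in 36 (1.34%). By its smaller gap, the most isolated was pCRM_4689 on Scaffold124 (422599 to 423212), a region of 614 bp. It had 237527 bp free of listed regions on one side and 275343 bp on the other. It was followed by pCRM_42034 on Scaffold83 (517289 to 517642), whose smaller gap was 198781 bp, and pCRM_35785 on Scaffold6 (970627 to 970942), whose smaller gap was 155741 bp. Of these 3, the first was above the upper quartile of width in isolated regions, and the other two, at 354 and 316 bp, were near the median. The region pCRM_28284 on Scaffold401 (339551 to 340353) had nearly equal gaps of 149488 and 150770 bp. On Scaffold497, pCRM_32016 (246151 to 246259) lay between gaps of 145454 and 271247 bp and was 109 bp wide. Each region named here had, in at least 1 of its gaps, a number that no listed name bears. For pCRM_4689 there were 2 such numbers in one gap and 6 in the other.

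The limit of 20000 bp cut through a continuous range of gaps. Just inside it were pCRM_27187 with a smaller gap of 20011 bp, pCRM_30339 with 20013 bp and pCRM_851 with 20014 bp. Just outside it were pCRM_40227 with 20000 bp, pCRM_17729 with 19997 bp and pCRM_12656 with 19994 bp, each with 1 gap above the limit. A further 55 regions had both gaps over the limit and were left out because they were wider than 1000 bp. The narrowest of those were pCRM_20363 and pCRM_20884, both 1003 bp wide. In all, 24076 regions of at most 1000 bp had neighbours on both sides and could have been isolated, and the isolated regions were 11.2% of them.

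Most isolated regions lay beside a break in the numbering of the names. Every name consists of pCRM_ and a number that rises along each scaffold, and some numbers are borne by no listed region. Of the isolated regions, 2146 (79.9%) had at least 1 missing number in a flanking gap, against 1792 (35.5%) of the comparison regions. Both gaps held a missing number beside 873 isolated regions (32.5%) and beside 201 comparison regions (3.99%). The share between these groups, 61.9%, was found in the 9057 regions with 1 gap over 20000 bp. Whether a missing number stood for an accessible region at that place is not known. The isolated regions with no missing number in either gap, which were neighbours by name as well as by position, were 540 (20.1%) on 390 scaffolds.

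Missing numbers went with the length of a gap, and at a like length they were about as frequent beside isolated regions as elsewhere. Of gaps of 20000 to 30000 bp, 40.8% of the 1289 beside an isolated region held a missing number, and 43.7% of the 1262 beside none. Of gaps of 50000 to 100000 bp, the shares were 66.1% (1294 gaps) and 66.8% (965 gaps). Above 100000 bp they were 77.6% (509 gaps) and 78.3% (364 gaps). The gaps beside isolated regions held 1.68 missing numbers per 100 kb, those over 20000 bp beside no isolated region 1.74, and the shorter gaps beside comparison regions 2.70. Long gaps therefore held more missing numbers per gap and fewer per length.

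**Figure D2:**
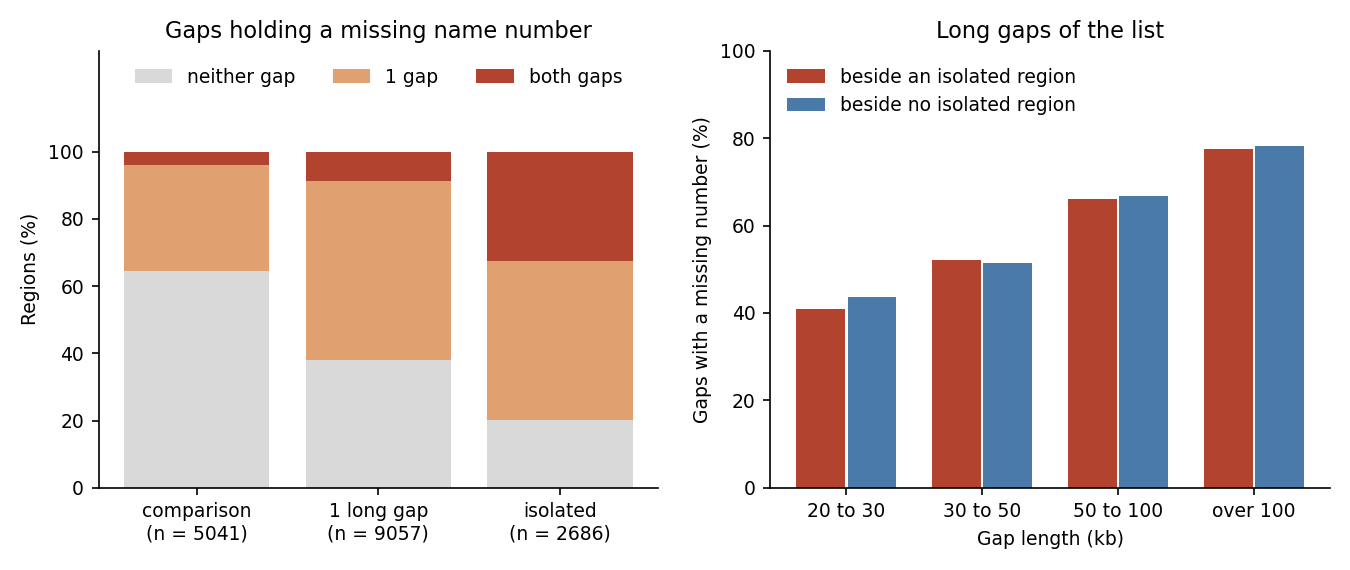
Left, percent of regions with a missing name number in neither, 1 or both flanking gaps, for comparison regions, regions with 1 gap over 20000 bp and isolated regions. Right, percent of gaps with a missing number by gap length (kb), for gaps beside an isolated region and gaps over 20000 bp beside none; the share with any missing number is 35.5% in comparison and 79.9% in isolated regions, while the paired bars on the right are of similar height, such as 77.6 and 78.3% above 100 kb.

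Where gaps were divided by the number of name steps they held, the mean step was over 20000 bp on both sides of 1411 isolated regions (52.5%). These 1411 comprised the 540 without a missing number and 871 with at least 1. Among the 540, the most isolated was pCRM_37543 on Scaffold655 (145647 to 146061), 415 bp wide, with gaps of 109372 and 95172 bp. The next were pCRM_27245 on Scaffold38 (1293091 to 1293283), with gaps of 95394 and 93212 bp, and pCRM_12662 on Scaffold182 (412423 to 412667), with gaps of 93305 and 92644 bp. All 36 regions with a smaller gap of more than 100000 bp had a missing number beside them. Each of the 36 had 2 gaps of that length. A missing number was held by 77.6% of gaps over 100000 bp beside an isolated region and by 78.3% of those beside none.

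In width the isolated regions resembled the comparison regions at the median and differed above 500 bp. The median was 308 bp for isolated regions (quartiles 225 and 491 bp) and 303 bp for comparison regions (quartiles 229 and 446 bp). The means were 362 ± 207 bp (SD, n = 2686 regions) and 349 ± 192 bp (SD, n = 5041 regions), a difference far smaller than the spread within either group. Both had their highest bin at 251 to 300 bp, with 14.7% of isolated and 16.3% of comparison regions. Widths over 500 bp were found in 649 isolated regions (24.2%) and in 1005 comparison regions (19.9%). The limit of 500 bp was chosen after the widths were seen. This difference of 4.23 percentage points was 2.55 against comparison regions with gaps of 5000 to 20000 bp, and 1.46 when isolated regions were taken at a gap limit of 50000 bp.

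**Figure D3:**
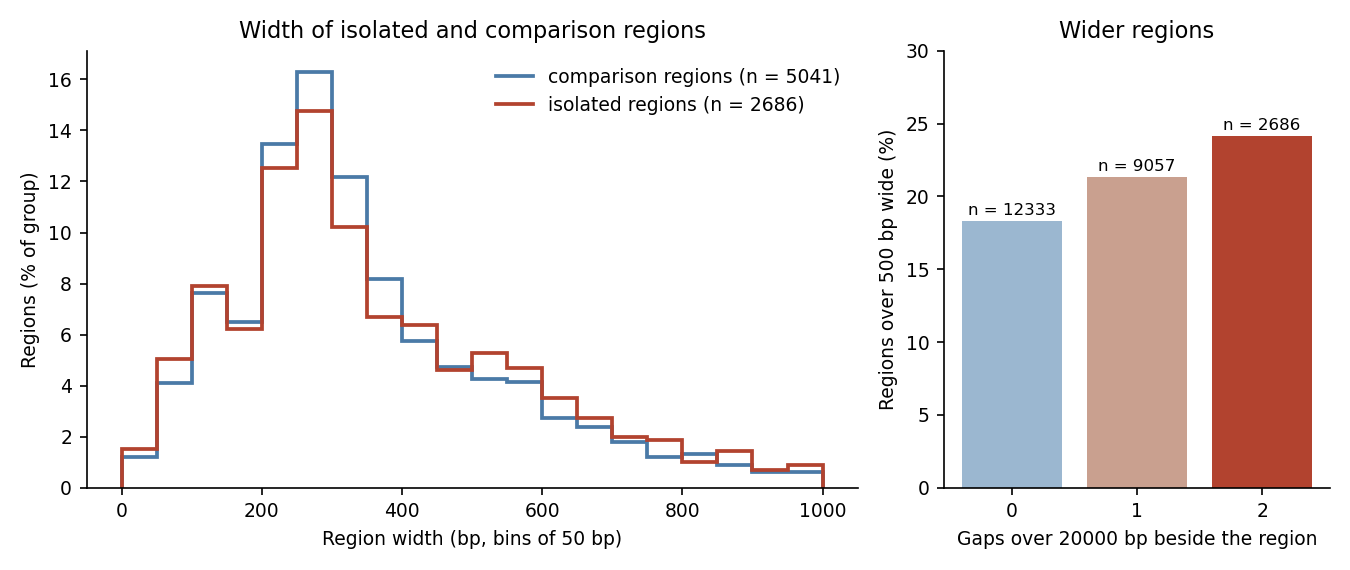
Left, width of isolated and comparison regions in bins of 50 bp as percent of each group. Right, percent of regions wider than 500 bp among regions with 0, 1 or 2 gaps over 20000 bp, which were 18.3, 21.3 and 24.2%; both groups on the left peak at 251 to 300 bp, and the isolated regions lie higher in every bin between 500 and 800 bp.

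By number of long gaps, the share of regions over 500 bp was 18.3% in the 12333 regions with no gap over 20000 bp. It was 21.3% in the 9057 with 1 such gap and 24.2% in the isolated regions. These groups lay on 1690, 1718 and 1052 scaffolds, and the first held closely spaced regions, with a median smaller gap of 2367 bp. On scaffolds with an isolated region, regions with both gaps of 5000 to 20000 bp had a share of 21.6%, near that with 1 long gap. Within the isolated regions it followed no steady order, with 24.9% at a smaller gap of 20000 to 30000 bp (1298 regions), 24.5% at 30000 to 50000 bp (930 regions), 21.1% at 50000 to 100000 bp (422 regions) and 9 of the 36 regions above that. Among regions with no missing number beside them, 135 of 540 isolated and 672 of 3249 comparison regions (20.7%) were that wide. The medians of these subsets stood the other way round, at 302.5 bp and 307 bp, so the median gives no steady order.

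The same widths were set side by side within scaffolds. On the 811 scaffolds with both kinds, the median width of isolated regions was above that of comparison regions on 447, below it on 363 and equal on 1, and the median difference was 20 bp (quartiles -82.5 and 146.5 bp). Many of these scaffolds held only 1 or 2 regions of a kind. On the 268 scaffolds with 3 or more of each, isolated regions were wider on 134 and narrower on 134, and the median difference was 0.5 bp. On those 268 scaffolds, 22.9% of 1317 isolated and 19.5% of 2517 comparison regions were over 500 bp. The other 241 scaffolds held isolated regions and no comparison region, and there 22.8% of 447 isolated regions were over 500 bp.

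At the narrow end, 127 isolated regions (4.73%) were under 100 bp and 50 (1.86%) were of exactly 100 bp. In comparison regions the figures were 197 (3.91%) and 71 (1.41%). The narrowest isolated regions were pCRM_8951 on Scaffold1519 (30695 to 30697) with 3 bp, pCRM_2280 on Scaffold111 and pCRM_10923 on Scaffold167 with 4 bp each, pCRM_8473 on Scaffold1478 with 7 bp and pCRM_23025 on Scaffold302 with 8 bp. How the list came to hold such widths was not tested. The widest, next to the ceiling, were pCRM_20106 on Scaffold260 (676032 to 677030) with 999 bp, pCRM_1795 on Scaffold1083 with 998 bp, pCRM_36031 on Scaffold607 with 994 bp, pCRM_2486 on Scaffold1121 with 992 bp and pCRM_37045 on Scaffold636 with 991 bp. Of these 5 widest regions, pCRM_1795 had no missing number beside it.

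The listed neighbours of isolated regions were not wider or narrower than those of comparison regions by more than a few bp at the median. The 3600 neighbours that were not isolated themselves had a median width of 309 bp (quartiles 226 and 490 bp), and 3.03% of them were over 1000 bp. The 5051 neighbours of comparison regions that were not comparison regions themselves had a median of 306 bp (quartiles 226 and 471 bp), and 3.50% were over 1000 bp.

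Beyond the neighbour, the next gap outward was at most 2000 bp in 622 of 4761 cases (13.1%), so that the neighbour itself had another listed region close by. For comparison regions this was so in 1904 of 9719 cases (19.6%). Where the neighbour was in the same group, the rule fixed the next gap, over 20000 bp for isolated and at 2000 to 20000 bp for comparison regions. The rule thus lowers both shares by unlike amounts, and they are not a like comparison. For 11.4% of the sides of isolated regions, and 3.60% of those of comparison regions, the neighbour was the last listed on the scaffold. No next gap could be measured there. Outward gaps over 20000 bp were 1798 (37.8%) for isolated and 2701 (27.8%) for comparison regions. For isolated regions they mostly lie beyond neighbours that are isolated too, where the rule fixes them. Such neighbours are described with the runs.

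Some isolated regions followed one another. The neighbour of an isolated region already has 1 gap over 20000 bp by the rule. To be isolated too, it needs only its other gap over the limit and a width of at most 1000 bp. Of all gaps in the list, 8319 (30.8%) were over 20000 bp. Whether runs were more frequent than this share gives was not tested. A run was defined as listed neighbours on a scaffold that were all isolated, and the 2686 regions fell into 1801 runs, of which 1237 were single regions. The other 1449 regions (53.9%) stood in 564 runs of 2 or more, and 729 (27.1%) in 204 runs of 3 or more. There were 20 runs of 5 regions, 10 of 6 and 1 of 7. When only gaps with no missing number were allowed within a run, 48 runs of 3 or more were left and the longest had 5 regions. Those 2 longest runs without a missing number within were pCRM_18362 to pCRM_18366 on Scaffold24 (221597 to 534365) and pCRM_21473 to pCRM_21477 on Scaffold280 (559948 to 688414).

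The run of 7 lay on Scaffold48 (408500 to 751934), from pCRM_31436 to pCRM_31446, and its regions covered 0.474% of 343 kb. Its regions were 324, 243, 180, 207, 262, 103 and 310 bp wide in order of position. The gaps between them were 20865, 101663, 28216, 21577, 149161 and 20324 bp. Only the 2 gaps of more than 100000 bp held missing numbers, 2 each, and the 4 shorter gaps held none. All 7 regions were under 500 bp, and the 4 shorter gaps were of 20324 to 28216 bp. The run was flanked by gaps of 51072 and 38306 bp.

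**Figure D4:**
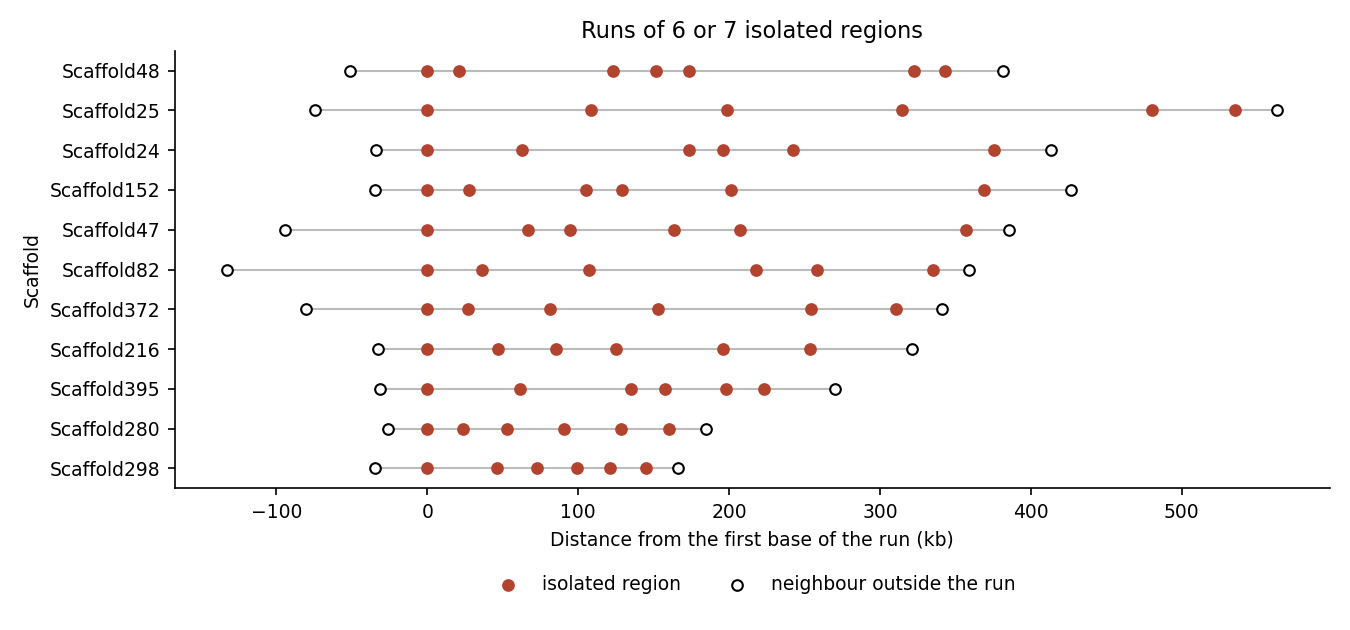
The 11 runs of 6 or 7 isolated regions, one line a scaffold, with distance from the first base of the run on the x axis (kb); filled points are isolated regions and open points the listed neighbours that end the run. The run on Scaffold25 is the longest at 535 kb, and that on Scaffold298 the shortest at 145 kb.

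The runs of 6 differed in length and in makeup. On Scaffold25, pCRM_19239 to pCRM_19252 (963092 to 1498231) spanned 535 kb, with gaps of 54046 to 165298 bp inside, and each of its 5 gaps held a missing number. The run on Scaffold24, pCRM_18357 to pCRM_18366 (158693 to 534365), spanned 376 kb, and 4 of its 5 gaps held none. On Scaffold280, pCRM_21473 to pCRM_21479 (559948 to 720111) spanned 160 kb with gaps of 23000 to 37436 bp, 4 of them without a missing number. The shortest, pCRM_22531 to pCRM_22537 on Scaffold298 (281464 to 426815), spanned 145 kb, and its 6 regions were 234 to 599 bp wide. The widest regions at the median were in the run on Scaffold395 (76634 to 300296), with a median of 547.5 bp and 1.36% of the sequence covered. The narrowest at the median were on Scaffold216 (64408 to 318521), with 196.5 bp and 0.652% covered.

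The isolated regions were spread over 1052 scaffolds, which were 51.3% of the 2049 that had the 3 or more listed regions needed to hold one, with a median of 2 on a scaffold that held any. A single isolated region was found on 433 of these scaffolds (41.2%), 2 to 4 on 471 (44.8%) and 5 or more on 148 (14.1%). The 148 scaffolds with 5 or more carried 993 isolated regions (37.0%). Scaffold25 carried the most, 16 of 66 listed regions, followed by Scaffold44 with 13 of 33, Scaffold9 with 13 of 65, Scaffold5 with 12 of 66 and Scaffold107 with 11 of 39. Scaffolds with 11 isolated regions included others besides Scaffold107, which was named as the one with the fewest listed regions.

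The number of listed regions limits how many can be isolated, so shares were taken among regions of at most 1000 bp with 2 neighbours. By number of listed regions, that share was 12.4% on scaffolds with 3 to 5, 12.6% on those with 6 to 10, 13.1% on those with 11 to 20, 10.6% on those with 21 to 40 and 9.36% on those with 41 or more. At least 1 isolated region was found on 18.7% of the 658 scaffolds with the fewest and on 97.7% of the 129 with the most listed regions. By extent, the end of the last listed region and a lower bound on scaffold length, the share was higher on longer scaffolds. It was 2.74% on scaffolds of up to 100000 bp, 8.96% between 100000 and 250000 bp, 11.5% up to 500000 bp, 12.1% up to 1000000 bp and 13.0% above that. An extent of up to 100000 bp leaves little room for 2 gaps over 20000 bp. All 83 scaffolds with an extent over 1000000 bp held an isolated region.

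On the 460 scaffolds with 20 or more listed regions, isolated regions were a median of 8.14% of listed regions (quartiles 4.35 and 13.95%), and 46 held none. The highest share was on Scaffold24, where 10 of 20 listed regions were isolated and none was a comparison region. It was followed by Scaffold44 (39.4%), Scaffold37 (38.5%), Scaffold22 (9 of 25 regions) and Scaffold372 (35.0%). Scaffold24 and Scaffold372 also held runs of 6, and Scaffold44 held a run of 5. At the other end, Scaffold179 held 59 listed regions, Scaffold1358 held 50 and Scaffold175 held 43, and none of them was isolated. Listed density was 1.97 per 100 kb of extent on Scaffold24, 15.5 on Scaffold1358, 8.08 on Scaffold179 and 4.76 on Scaffold175. Across these 460 scaffolds the share of isolated regions and the density were correlated with a Spearman rho of -0.67 and a Pearson r of -0.58. This is a description in which both measures come from the same positions, so that a lower density by itself makes longer gaps.

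**Figure D5:**
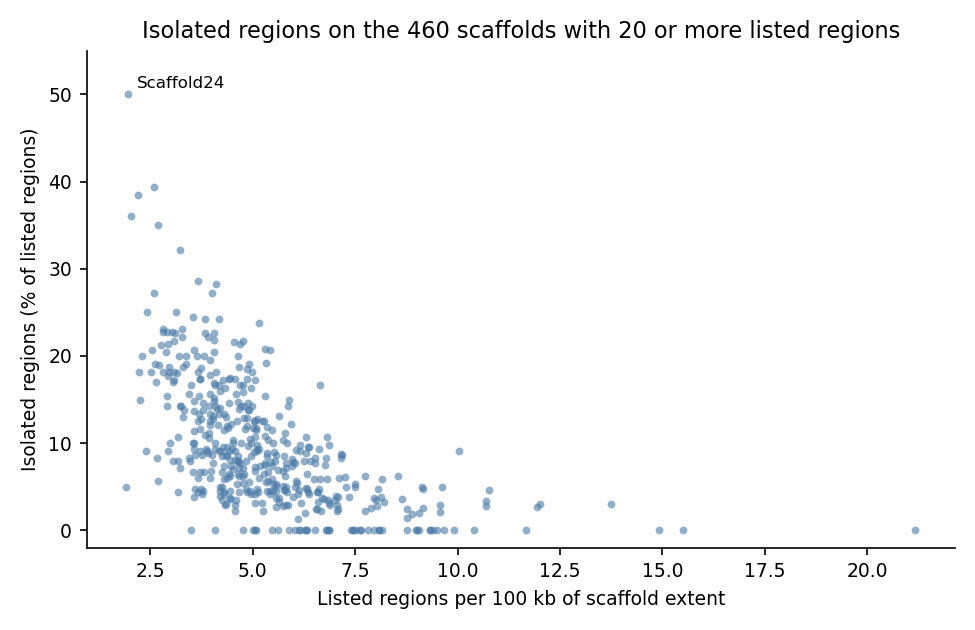
Percent of listed regions that were isolated (y) against listed regions per 100 kb of scaffold extent (x), one point for each of the 460 scaffolds with 20 or more listed regions. The share tends to fall as density rises, and ranges from 50.0% on Scaffold24 to 0 on 46 scaffolds. Scaffolds of like density differ: Scaffold24 has 1.97 listed regions per 100 kb, and Scaffold108, with 1.91, has a share of 5%.

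Isolated regions were also more often next to the end of a scaffold's list. The second or the second-to-last listed place was held by 572 isolated regions (21.3%), against 10.7% of the 19007 regions of up to 1000 bp with 2 neighbours on the same scaffolds. On scaffolds with 20 or more listed regions the shares were 10.0% of 1510 isolated and 5.86% of 13815 such regions. How far the scaffolds extend beyond their last listed region was not analysed here.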

How the data were processed

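ATAC-seq was made from gut (2 libraries) and whole embryos (2 libraries) at 2 dpf, and the 5 single-cell samples of the series were not analysed here. The deposited file is 1 list for all 4 libraries, which gives the scaffold, the start and end coordinates in bp and a name for each region. MACS2 2.1.2, bedtools 2.27.1, Bowtie2 2.3.4.1, Trimmomatic 0.38 and SAMtools 1.7.1 are among the tools listed, without their roles, per the submitters' processing notes. The peak threshold is not given in the sources used here, nor are the genome build, the handling of Tn5 offsets and any pooling of reads. A caller that merges or trims nearby regions, or a later filter, would change gaps and widths. Read depth is unknown, so no interval or detection limit is given for a region.

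Starts were taken as counted from 0 and are printed counted from 1. Gaps, widths, missing name numbers, isolated and comparison regions, and runs were computed with Python 3.11.15 and pandas 2.3.3. The selection of isolated regions was tested on a simulated list. No test between samples was run. Regions were named as extremes by a rule: the 5 with the largest smaller gap, the 5 widest, the 5 narrowest, those nearest the limit, the longest runs, and the 5 scaffolds with the most. The regions with no missing number, those just over the width ceiling, and scaffolds with the highest share or none were added to it afterwards. The members and lists were chosen with earlier results of these data known.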

Additional observations from a re-analysis of the deposited data

How the results depend on the processing

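The number of isolated regions depends on the limit, with 6204 at 10000 bp, 1388 at 30000 bp and 458 at 50000 bp. It was 2741 without a width ceiling, and 1411 when gaps were counted per name step or 540 with no missing number beside the region. At the same 3 limits the share beside a missing number was 70.1, 84.9 and 90.4%, the runs of 3 or more numbered 730, 65 and 15, and the share of regions in runs of 2 or more was 72.2, 44.2 and 29.9%. With no missing number allowed inside a run, there were 48 runs of 3 or more, and 25.4% of regions stood in runs of 2 or more. The difference in median width, isolated minus comparison, was 5 bp and turned to -4.5 bp with no missing number on either side and to -1 bp against gaps of 5000 to 20000 bp (comparison median 309 bp). It was 20 bp with each scaffold weighted equally. The cause was not tested. Without regions under 100 bp the medians were 318 and 310 bp, and without those of 100 bp or less 322 and 313 bp, since narrow regions were removed from both groups. The share over 500 bp was higher in isolated regions under each of the 10 alternatives run. All of them kept the limit of 500 bp and shared many regions, so they are not independent and do not test that limit. The difference was 4.23 percentage points over all regions, 2.55 against gaps of 5000 to 20000 bp and 1.46 at a limit of 50000 bp, where 21.4% of isolated regions were over 500 bp. The isolated share over 500 bp was 25.9% without regions of 100 bp or less. The comparison share was 21.7% without a ceiling and 21.6% against gaps of 5000 to 20000 bp. Comparison regions of exactly 100 bp were 1.11% with no missing number beside them. Isolated regions lay on 414 of 460 scaffolds with 20 or more listed regions, where they were 9.34% of those listed, and on 397 of 405 scaffolds with an extent over 500000 bp, where they were 11.4%. The share over 500 bp, its alternatives, the scaffolds with 3 or more of each kind, and the name steps were chosen after seeing the data. No paired analysis was possible because regions carry no value by library, and no replicate could be left out. Without depth, weak and strong regions cannot be told apart, and a stretch without listed regions is not shown to be closed.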
